A study of Homo sapiens with 6 samples.

Results

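BCL2 family genes and the death-associated kinase gene DAPK1 were followed by RNA sequencing in HaCaT, a human keratinocyte line of the epidermis that became immortal spontaneously. The 10 genes, among 46287 rows of the count table, were taken by name: DAPK1, the anti-apoptotic genes BCL2, BCL2L1 and MCL1, the BH3-only genes BCL2L11, BBC3, PMAIP1 and BID, and the effector genes BAX and BAK1. All 10 had counts and passed the filter on low counts. They were chosen by name with the log2 fold changes of this comparison, knockout over control, already known, so each difference between the groups is given for them as a description, with its standard error and without a p-value.

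The first group held 3 libraries of SDR42E1 knockout cells, edited with CRISPR/Cas9 and labelled homozygous, and the other held 3 libraries of wild-type HaCaT cells. SDR42E1 encodes a short-chain dehydrogenase/reductase, and the study set its loss against the whole transcriptome in connection with vitamin D. All cells grew in the same medium with serum and were harvested before confluence, and the labels name no treatment. The labels call the replicates biological, speak of RNA pools and do not say whether libraries came from separate cultures or edited clones. A p-value therefore reflects how far these libraries scatter, and an effect of the edit and a difference between cell populations cannot be told apart.

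The mitochondrial route to apoptosis turns on contacts between BCL2 family proteins. BCL2, BCL-XL (the product of BCL2L1) and MCL1 hold the effectors BAX and BAK in check; BH3-only proteins such as BIM (BCL2L11), PUMA (BBC3), NOXA (PMAIP1) and BID relieve that check or activate the effectors directly. Freed BAX and BAK permeabilize the outer mitochondrial membrane, cytochrome c escapes, and APAF1 and caspase-9 start the caspase cascade. DAPK1 is a calmodulin-regulated serine/threonine kinase of another family, linked to cell death after interferon-gamma, detachment and other stresses, and its CpG-rich promoter is a frequent site of methylation in tumours. In keratinocytes MCL1 and BCL-XL are major survival factors.

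Library totals ran from 11504473 to 13454544 counts in knockout cells and from 12094896 to 16928201 in control cells. SDR42E1 RNA had 268, 265 and 237 counts in the knockout libraries and 650, 822 and 601 in the control libraries, which put every knockout library below every control library (log2 fold change -1.16, SE 0.08; by edgeR's quasi-likelihood test, adjusted p = 2.69e-14). Keratinocyte markers were abundant: the 11 listed, of which 6 were higher and 1 lower in the knockout, summed to 9510 to 9770 CPM (counts per 1000000 library counts) in knockout libraries and 9150 to 9780 CPM in control libraries. Markers of other cell types were scarce. The 7 fibroblast markers summed to 1.12 to 2.13 CPM in knockout libraries and 4.30 to 6.19 CPM in control libraries, with DCN and PDGFRA at 0 and 1 of 2 tested members, COL3A1, lower in the knockout (log2 -4.33, and -8.04 without knockout replicate 3). The 6 immune cell markers summed to 8.13 to 9.68 CPM in knockout libraries and 5.40 to 8.45 CPM in control libraries, most of it CD68 and with CD3E, CD79A and TYROBP at 0. The 5 melanocyte markers summed to 19.5 to 23.5 CPM in knockout libraries and 24.1 to 24.9 CPM in control libraries, mostly MITF and with TYR at 0. The 5 endothelial markers summed to 1.92 to 2.66 CPM in knockout libraries and 3.65 to 4.28 CPM in control libraries, none at 0, with 1 of 2 tested, VWF, lower in the knockout, a call lost with DESeq2, with no filter and without any one of control replicates 2 and 3 and the 3 knockout replicates. With no filter the endothelial list still held 1 call. The part of these low markers in the results was not tested.

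3 promoters are printed. DAPK1 had the largest difference of the 10, PMAIP1 the largest among the abundant ones, and BAX held the most copies of the E-box, 1 of the 4 motifs searched. The BAX window was picked for that count, so nothing is read from how rare the count is. Each is the 250 bases before a RefSeq transcription start (GRCh38.p14, plus strand), in lower case with the counted letters in capitals. GENCODE 29 starts DAPK1 earlier, at 87497228, so the DAPK1 window lies inside the gene as annotated there. The ends of the PMAIP1 and BAX windows also run past the GENCODE starts of those genes. RefSeq's table held a promoter for 9 of the 10 genes, and several genes had more than 1 start.
DAPK1, chr9:87497617-87497866, capitals marking CG: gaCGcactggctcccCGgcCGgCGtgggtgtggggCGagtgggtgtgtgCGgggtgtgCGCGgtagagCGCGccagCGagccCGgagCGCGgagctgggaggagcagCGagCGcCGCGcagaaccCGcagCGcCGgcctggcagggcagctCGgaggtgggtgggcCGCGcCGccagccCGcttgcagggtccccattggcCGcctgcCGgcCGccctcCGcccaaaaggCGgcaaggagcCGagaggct
PMAIP1, chr18:59899746-59899995, capitals marking TGACG or its reverse complement: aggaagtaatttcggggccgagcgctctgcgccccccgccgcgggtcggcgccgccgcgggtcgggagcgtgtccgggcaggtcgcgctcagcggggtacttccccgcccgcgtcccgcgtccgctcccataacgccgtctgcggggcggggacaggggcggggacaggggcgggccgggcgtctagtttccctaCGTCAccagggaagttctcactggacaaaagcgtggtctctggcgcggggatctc
BAX, chr19:48954625-48954874, capitals marking CACGTG: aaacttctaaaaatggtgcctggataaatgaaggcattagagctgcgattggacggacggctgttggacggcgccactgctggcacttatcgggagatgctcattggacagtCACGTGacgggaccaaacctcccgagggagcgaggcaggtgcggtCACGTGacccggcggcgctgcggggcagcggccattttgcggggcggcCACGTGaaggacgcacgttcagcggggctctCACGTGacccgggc

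The DAPK1 window held 32 CG dinucleotides, where the median of 35116 promoters was 11 and 90.5% had fewer. The PMAIP1 window held 36 (95.1% had fewer). A relation between CG density and the differences was not tested. Capitals in the PMAIP1 window mark the single match to TGACG, the core of the cyclic AMP response element. It was searched on both strands and found in 21.2% of promoters of this length. The windows of BAX, BCL2 and 1 start of BCL2L1 also held 1 match each. The BAX window held 4 copies of CACGTG, the E-box that MYC and related factors bind; 6.34% of promoters held at least 1 copy and 0.0142% held at least 4. One of the BAX copies overlaps a TGACG match. High CG counts were not limited to these genes: BCL2L11 had 34 (93.2% had fewer), BAX 25 and BCL2 24. The other listed start of DAPK1 had 26, and the starts of BCL2L1 had 12 and 17. BBC3 had 4 CG and BAK1 had 5, while BID had 4 to 30 over its 5 starts. Of the other motifs searched, GGGCGG (the GC box, in 42.6% of promoters on either strand) occurred 4 times in the PMAIP1 window. This motif also occurred up to 4 times at starts of BID and 3 times at BCL2L11. CCAAT (in 32.0%) occurred 2 times in the BAX window. A match of letters shows neither binding nor methylation, which were not measured here.

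The kinase gene stood apart from the BCL2 family. DAPK1 had 4, 6 and 11 counts in the knockout libraries, against 530, 685 and 453 in the control libraries. Scaled, that is 0.346, 0.456 and 0.962 CPM in knockout cells and 38.1, 39.6 and 36.8 CPM in control cells. A trace was left in every knockout library, and the groups were far from overlapping. The log2 fold change, here and below knockout over control, was -6.02 (SE 0.18), a level 64.8-fold lower in the knockout. Of 12293 genes tested, 17 had a lower log2 fold change, and 1 of these, PLXDC2, averaged 2 or more in log2 CPM. In RNA from bulk cultures, fewer cells with the transcript and less of it per cell cannot be told apart.

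**Figure D1:**
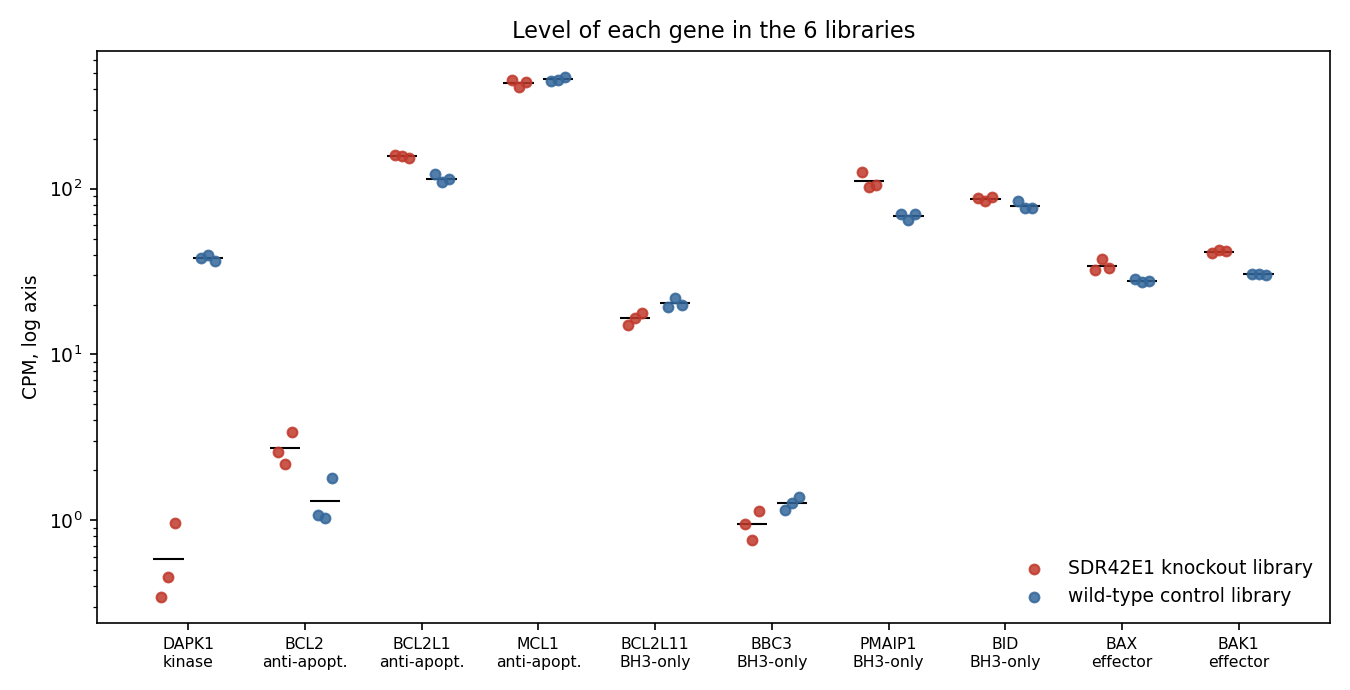
Level of each of the 10 genes in CPM on a log axis, 1 point per library, with knockout libraries left of control libraries and a line at each group mean. DAPK1 is near 0.588 CPM in knockout cells and 38.2 CPM in control cells, while the BCL2 family genes lie within about 2.12-fold of their control level.

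The fold changes of the genes around DAPK1 did not share its size. DAPK1 lies on chromosome 9, plus strand, from 87497228 to 87708633 (GRCh38, GENCODE 29), where 0 bases of its exons are shared with another annotated gene. The 10 tested genes on each side that averaged 2 or more in log2 CPM spanned 8.28 megabases. Their median log2 fold change was -0.07 (-0.13 with 20 on each side). Past an adjusted p of 0.05 in edgeR, 9 of the 20 were lower and 2 higher in the knockout. Among all tested genes, 25.8% were lower and 24.6% higher. Next before it, TUT7, a uridylyltransferase gene, had a value of -0.01 (adjusted p = 0.899) and ISCA1, of iron-sulfur cluster assembly, rose by 0.20 (adjusted p = 0.00828). Next after it, the lysosomal protease gene CTSL rose to 60.1 ± 5.72 CPM in knockout cells, against 36.6 ± 2.70 CPM in control cells (SD, n = 3 each; log2 0.72, adjusted p = 8.87e-10 in edgeR), and CDK20 had a value of 0.09 (adjusted p = 0.745). Of the other genes among the nearest 5 on each side, GOLM1 (-0.26), SPIN1 (-0.23), CKS2 (-0.30) and SECISBP2 (-0.17) fell, and AGTPBP1 (0.04) and NAA35 (-0.12) did not pass. Farther out, at -2.83 megabases from the start of DAPK1, the neurotrophin receptor gene NTRK2 fell to 1.01 ± 0.675 CPM in knockout cells, against 18.6 ± 0.328 CPM in control cells (log2 -4.21, adjusted p = 4.98e-16); it was the one neighbour with a value below -1 and lies outside the nearest 5.

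**Figure D2:**
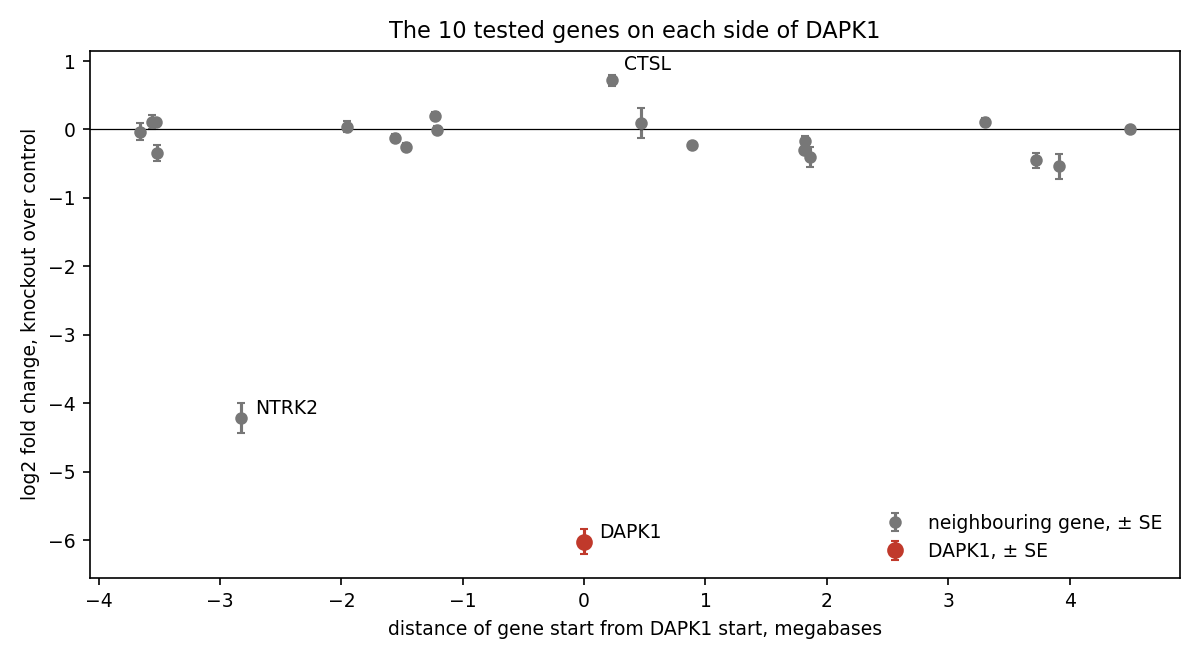
Log2 fold change, knockout over control, of DAPK1 and of the 10 tested genes on each side, with standard errors, against the distance of each gene's start from that of DAPK1 in megabases. DAPK1 at -6.02 and NTRK2 at -4.21 are the only points under -1; the other 19 neighbours lie between -0.54 and 0.72.

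The 5 genes whose profile over the 6 libraries lay nearest to DAPK1, among 10660 that averaged 2 or more in log2 CPM, were HMCN1, PLXDC2, FAT3, MPPED2 and NTRK2. Likeness was the root mean square difference of log2(CPM + 1), taken relative to the control mean, and came to 0.28 for HMCN1, 0.54 for PLXDC2, 0.56 for FAT3, 0.86 for MPPED2 and 0.93 for NTRK2. HMCN1, a matrix protein gene, had 36, 44 and 43 counts in knockout libraries and 1136, 1521 and 1019 in control libraries. PLXDC2 had 0, 1 and 1 counts in knockout libraries and 192, 273 and 184 in control libraries, so its knockout libraries were nearer to 0 than those of DAPK1. Nothing about function is read from this likeness.

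Among the anti-apoptotic genes the most abundant had the smallest difference. MCL1, a short-lived guard of the mitochondrion that binds NOXA and BIM, had 455, 410 and 439 CPM in knockout cells and 449, 455 and 473 CPM in control cells. Its groups overlapped, and its log2 fold change of -0.08 (SE 0.05) did not pass the threshold. BCL2L1, whose main product is BCL-XL, had 160, 158 and 154 CPM in knockout cells and 122, 109 and 115 CPM in control cells. All 3 knockout libraries were above the controls, by 0.45 on the log2 scale (SE 0.05) or 1.37-fold. BCL2 itself was scarce, with 30, 29 and 39 counts in knockout libraries and 15, 18 and 22 in control libraries. That is 2.74 ± 0.617 CPM in knockout cells and 1.30 ± 0.419 CPM in control cells (SD, n = 3 each), a log2 fold change of 1.08 (SE 0.33); without knockout replicate 3 it was 0.90 and no longer past the threshold.

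The BH3-only genes pointed in different directions. PMAIP1, encoding NOXA, had 126, 102 and 105 CPM in knockout cells and 70.5, 64.3 and 70.8 CPM in control cells. The lowest knockout library was well above the highest control library, with a log2 fold change of 0.69 (SE 0.07), or 1.62-fold. BID, which caspase-8 cleaves to link death receptors to mitochondria, had 87.9, 84.6 and 89.0 CPM in knockout cells and 84.0, 76.8 and 76.0 CPM in control cells. The groups were only just apart, with a log2 fold change of 0.14 (SE 0.06) that lost its call with DESeq2, with upper-quartile scaling and without any one of control replicates 2 and 3 and knockout replicates 1 and 3. BCL2L11, encoding BIM, had 15, 16.6 and 17.8 CPM in knockout cells and 19.3, 22 and 20 CPM in control cells. Every knockout library was below every control library, by a log2 fold change of -0.32 (SE 0.11), and this was -0.25 and not called without control replicate 2 or without knockout replicate 1. BBC3, encoding PUMA, had only 11, 10 and 13 counts in knockout libraries and 16, 22 and 17 in control libraries. Its CPM values did not overlap, yet the log2 fold change of -0.42 (SE 0.39; -0.27 without knockout replicate 2 and -0.56 without knockout replicate 3) did not pass, and at this depth a difference of that size was not detectable.

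Both effector genes were higher in the knockout. BAX, a cytosolic pore former that moves to mitochondria, had 32.3, 37.7 and 33.1 CPM in knockout cells and 28.4, 27.5 and 27.6 CPM in control cells. Knockout replicate 2 was the highest, and all 3 knockout libraries were above the controls (log2 fold change 0.31, SE 0.09). BAK1, whose product resides on the outer mitochondrial membrane, had 40.7, 42.5 and 42.0 CPM in knockout cells and 30.4, 30.7 and 30.0 CPM in control cells. The 3 libraries of each group were nearly equal, and the log2 fold change was 0.46 (SE 0.08), the same 1.37-fold as BCL2L1.

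Of the 10 genes, 8 passed an adjusted p of 0.05 in edgeR, 6 higher and 2 lower in the knockout, where 50.4% of all tested genes passed, 24.6% higher and 25.8% lower. In 9 of the 10 the groups did not overlap, where this held for 56.5% of all tested genes. DAPK1, lower, and BCL2, higher, passed with at least a 2-fold difference, as did 7.14% of tested genes, 1.91% higher and 5.23% lower. The median log2 fold change of the 10 was 0.22, and that of all tested genes was 0.00. Since the genes were chosen with this comparison known, nothing is read from these counts.

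**Figure D3:**
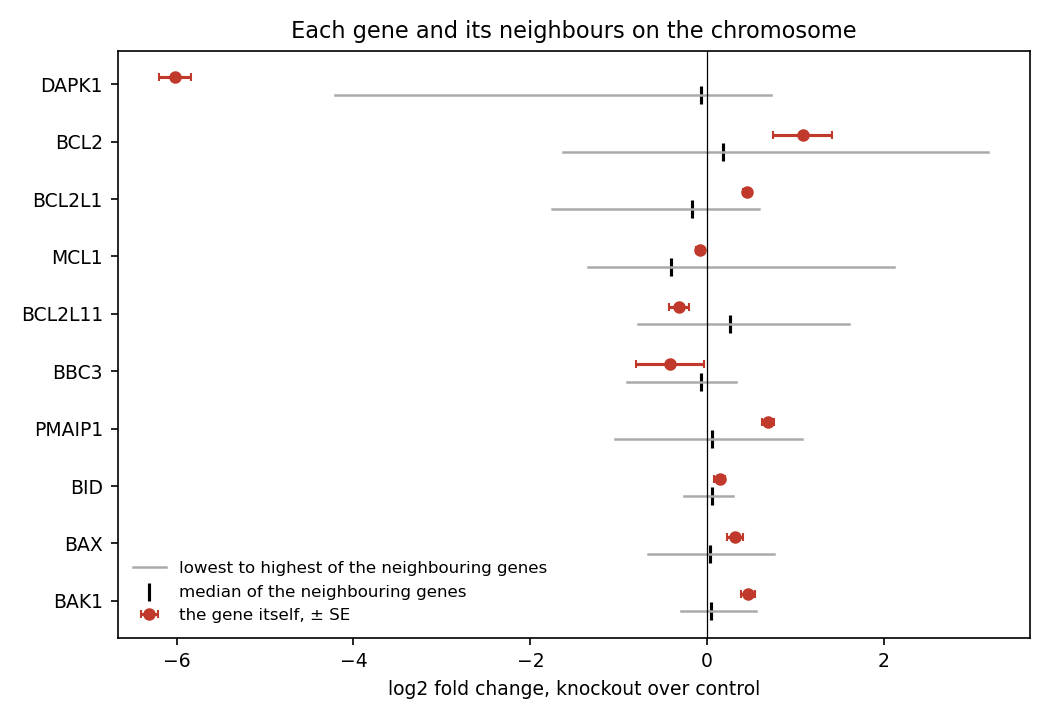
Log2 fold change, knockout over control, of each gene with its standard error (red), above the median (tick) and the lowest-to-highest range (grey line) of the 10 tested genes on each side of it (14 in all for BID). DAPK1 lies below the range of its neighbours, and MCL1, at -0.08, lies right of a neighbour median of -0.41.

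The genes around the BCL2 family members differed in direction from place to place. MCL1 sits at 150574551 to 150579738 on the minus strand of chromosome 1, among genes mostly lower in the knockout: of its 20 neighbours 15 fell and 1 rose, their median log2 fold change was -0.41, and MCL1 lay 0.33 above that median. BCL2L1, on the minus strand of chromosome 20 at 31664452 to 31723989, had 10 neighbours that fell and 3 that rose (median -0.17) and lay above 19 of the 20. BCL2 (63123346 to 63320128) and PMAIP1 (59899948 to 59904306) share the long arm of chromosome 18; BCL2 was above 19 of its 20 neighbours (median 0.18, 0.07 over the nearest 5 on each side and 0.03 over 20) and PMAIP1 above 19 of its 20 (median 0.06, -0.12 over the nearest 5 and 0.00 over 20). BCL2L11, on chromosome 2 at 111119378 to 111168447, was lower in the knockout among neighbours of which 8 rose and 1 fell (median 0.26, and 0.16 over the nearest 5 on each side). For BBC3 and BAX on chromosome 19, BAK1 on chromosome 6 and BID on chromosome 22, the neighbour medians were -0.07, 0.03, 0.04 and 0.05; that of BBC3 was -0.02 with 20 on each side and that of BAX 0.10 with 5. BID lies near the end of its chromosome's annotated genes and had 14 neighbours. Copy number was not measured.

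Levels were set between genes per kilobase of exon (RPKM, on the union of annotated exons), since longer genes collect more reads. In knockout cells the order was MCL1 (99.5 ± 5.24 RPKM), PMAIP1 (49.6 ± 5.86), BCL2L1 (47.5 ± 0.990), BID (19.6 ± 0.519), BAK1 (18.9 ± 0.403), BAX (13.3 ± 1.12), BCL2L11 (2.47 ± 0.217), BBC3 (0.298 ± 0.0594), BCL2 (0.233 ± 0.0524) and DAPK1 (0.0660 ± 0.0369; SD, n = 3). In control cells it was MCL1 (105 ± 2.87 RPKM), BCL2L1 (34.8 ± 2.00), PMAIP1 (30.7 ± 1.65), BID (17.8 ± 0.987), BAK1 (13.7 ± 0.144), BAX (10.8 ± 0.198), DAPK1 (4.29 ± 0.161), BCL2L11 (3.07 ± 0.216), BBC3 (0.399 ± 0.0360) and BCL2 (0.111 ± 0.0356; SD, n = 3). DAPK1 thus ranked 10 in knockout cells and 7 in control cells. In knockout cells 3 pairs of neighbours in the order overlapped, PMAIP1 with BCL2L1, BID with BAK1 and BBC3 with BCL2, and in control cells the libraries of every adjacent pair were apart. With the longest transcript as length, BAX came before BAK1 in both groups and BCL2L1 before PMAIP1 in the knockout.

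Summed over roles in RPKM, the 3 anti-apoptotic genes came to 147 ± 5.54 in knockout cells and 140 ± 3.04 in control cells, most of it MCL1. The 4 BH3-only genes came to 72.0 ± 5.93 RPKM in knockout cells and 51.9 ± 1.99 RPKM in control cells, most of it PMAIP1 and BID. The 2 effector genes came to 32.1 ± 1.46 RPKM in knockout cells and 24.5 ± 0.250 RPKM in control cells (SD, n = 3 each). Sums of RNA levels do not give protein amounts.

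Ratios of counts within a library need no scaling between libraries, and 5 such pairs were looked at after the values above were known. NOXA binds MCL1, and PMAIP1 had 27.6, 24.8 and 23.9 counts per 100 MCL1 counts in knockout libraries, against 15.7, 14.1 and 15 in control libraries. BCL2L1 had 35.2, 38.5 and 35.1 counts per 100 of MCL1 in knockout libraries and 27.2, 23.9 and 24.4 in control libraries. For both ratios, the lowest knockout library was above the highest control library. BIM is held by BCL-XL, and BCL2L11 had 9.33, 10.5 and 11.6 counts per 100 of BCL2L1 in knockout libraries, against 15.8, 20.3 and 17.3 in control libraries. BCL2L11 had 11.9, 16.3 and 17.0 counts per 100 of PMAIP1 in knockout libraries and 27.3, 34.3 and 28.2 in control libraries. These 2 ratios were lower in every knockout library. The pair of effectors differed least, with 126, 113 and 127 counts of BAK1 per 100 of BAX in knockout libraries and 107, 112 and 109 in control libraries.

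**Figure D4:**
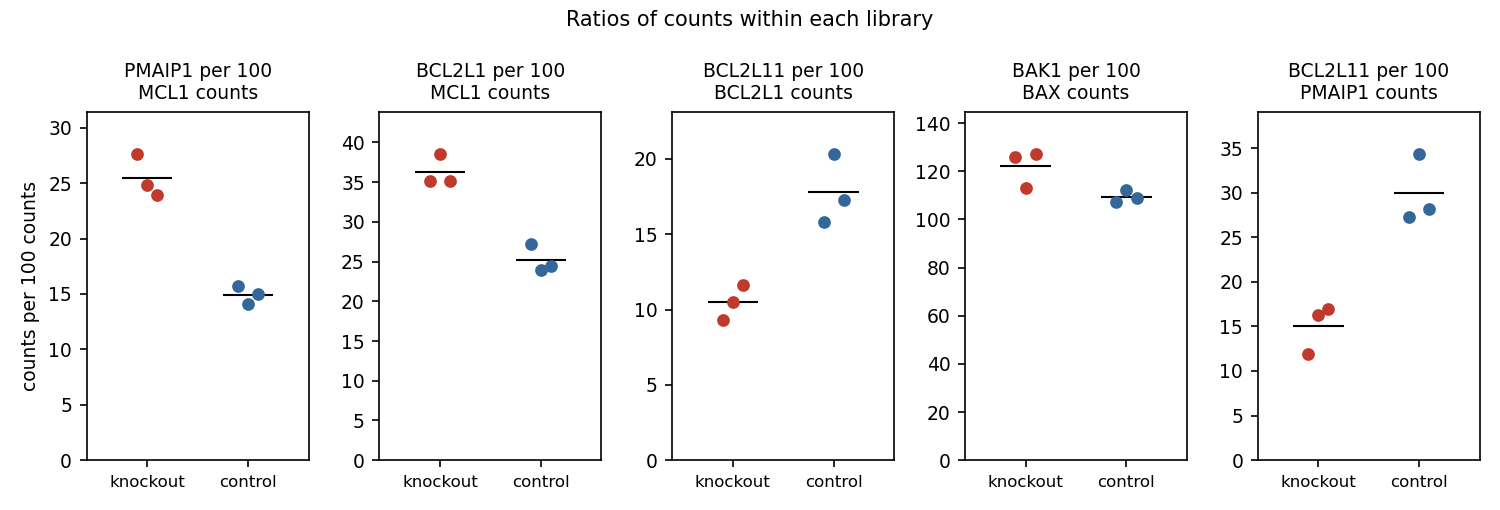
Counts of one gene per 100 counts of another in each library, with knockout libraries left of control libraries and a line at each group mean; the axis of each panel starts at 0. PMAIP1 per MCL1 and BCL2L1 per MCL1 are higher in the knockout, and BCL2L11 per BCL2L1 and per PMAIP1 lower, with BAK1 per BAX at 113 to 127 in knockout libraries and 107 to 112 in control libraries.

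The spread between replicates, which uses no comparison of the groups, differed among the 10 genes. Among the 200 genes of nearest level, the SD of log2(CPM + 1) in knockout libraries had a median of 0.0630 around PMAIP1, whose own SD was 0.164 and exceeded that of 98.0% of them; knockout replicate 1, at 126 CPM, was its highest library. At the other end, BAK1 had the lowest rank in each group: its SD was 0.0303 in knockout libraries and 0.0147 in control libraries, larger than in 4% of genes of like level in the knockout and 1.5% in the control. BAX, with an SD of 0.0255, and BBC3, with 0.0730, were also low in control libraries, above 3.0% and 8.0% of like genes; in knockout libraries they were above 65.0% and 23.5%. MCL1 had an SD of 0.0764 in knockout libraries and 0.0391 in control libraries, against medians of 0.0609 and 0.0350.

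Exons of BCL2L1 share 1424 bases with ABALON on the opposite strand, and those of BCL2L11 share 727 bases with MIR4435-2HG. Both partners had 0 counts in all 6 libraries. BBC3 shares 80 bases with MIR3190 and BAK1 shares 91 with GGNBP1, also on the opposite strand. The kit marks strand, but the sources used here do not say whether the counting used it, so reads of such partners could have been counted with these genes.

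The wider pathway was read from 10 lists holding 78 genes other than the 10 described above. Of 68 tested, 20 were higher and 15 lower in the knockout by edgeR at an adjusted p of 0.05, and 33 did not pass, beside 24.6% higher and 25.8% lower among all genes. The remaining BCL2 family divided. BCL2L2, the anti-apoptotic gene of BCL-W, rose to 43.1, 42.8 and 43.2 CPM in knockout cells, against 33.6, 34.3 and 33.0 CPM in control cells (log2 0.35, SE 0.08, adjusted p = 0.000207 in edgeR). The other two anti-apoptotic genes were not tested: BCL2A1, an NF-kB target, had 3, 3 and 3 counts in knockout libraries and 0 in each control library, and BCL2L10 had 0, 2 and 0 counts against 0.

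Of 6 other BH3-only genes, 2 fell, 1 rose and 3 did not pass (median 0.03). BMF, a BH3-only gene linked to loss of anchorage, fell to 1.12, 0.759 and 0.525 CPM in knockout cells, against 2.59, 4.46 and 6.49 CPM in control cells (log2 -2.47, SE 0.36, adjusted p = 8.70e-07 in edgeR). The control libraries were widely spread, and none reached down to the knockout values. HRK fell to 4.41, 3.19 and 4.29 CPM in knockout cells, against 8.42, 9.43 and 8.04 CPM in control cells (log2 -1.13, SE 0.18, adjusted p = 3.12e-06). BNIP3, of mitochondrial autophagy and hypoxia, rose by 0.80 (SE 0.19, adjusted p = 0.000482). BAD (0.15), BIK (-0.01) and BNIP3L (0.07) did not pass, BAD only narrowly (adjusted p = 0.052 in edgeR). The list held 4 calls under RLE scaling and with a replicate block. Among BOK and 4 further BCL2-like genes, BCL2L12 rose by 0.35 (adjusted p = 0.0196), a call lost without control replicate 1 (0.25) or knockout replicate 3 (0.29); BOK (0.09) and BCL2L13 (-0.02) did not pass, and BCL2L14 and BCL2L15 were not tested, with 11 and 7 counts in all in the knockout libraries and 33 and 12 in the control libraries.

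Of the 4 relatives of DAPK1, 1 fell and 3 rose (median 0.50). DAPK2, also regulated by calmodulin, fell to 3.20, 3.34 and 3.50 CPM in knockout cells, against 5.18, 10.9 and 9.34 CPM in control cells (log2 -1.35, SE 0.23, adjusted p = 2.31e-05 in edgeR). The other 3 kinases rose: DAPK3 by 0.41 (adjusted p = 8.26e-05), STK17A by 0.64 (adjusted p = 1.06e-12) and STK17B by 0.58 (adjusted p = 7.90e-09). STK17A had 171, 153 and 162 CPM in knockout cells and 102, 105 and 105 CPM in control cells, with no overlap.

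Downstream of the mitochondrion, the genes of cytochrome c and of its adaptor differed in opposite directions. CYCS, the cytochrome c gene, rose to 756 ± 66.9 CPM in knockout cells, against 497 ± 16.3 CPM in control cells (log2 0.60, SE 0.05, adjusted p = 9.41e-11 in edgeR); its own 20 neighbours on chromosome 7 had a median of 0.32, with 13 higher and 1 lower. APAF1, the scaffold of the apoptosome, fell to 47.4 ± 0.566 CPM in knockout cells, against 64.6 ± 3.82 CPM in control cells (SD, n = 3 each; log2 -0.44, adjusted p = 1.13e-06). Of the 9 genes of the pore and apoptosome, 3 rose (CYCS, VDAC1 by 0.27 and HTRA2 by 0.21, the last not called with DESeq2, with upper-quartile scaling or without any one of control replicates 2 and 3 and knockout replicates 1 and 2), 2 fell (APAF1, and VDAC3 by a log2 change of -0.16) and 4 did not pass (median 0.03). Of 7 tested caspase genes, 0 rose and 2 fell, among them the effector caspase gene CASP6 (-0.37, adjusted p = 0.00312). The initiator genes CASP8 (0.00) and CASP9 (-0.08) did not pass, and CASP14, of cornification, had 0 counts in each library.

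Of 6 tested genes of inhibitors of apoptosis, 4 rose, 0 fell and 2 did not pass (median 0.17). BIRC3, an NF-kB target and ubiquitin ligase, rose to 103, 107 and 105 CPM in knockout cells, against 57.0, 42.6 and 46.9 CPM in control cells (log2 1.10, SE 0.08, adjusted p = 4.86e-11 in edgeR). XIAP, the direct caspase inhibitor, rose by 0.25 (adjusted p = 0.00309), BIRC6 by 0.19 (adjusted p = 0.000729) and BIRC5 by 0.15 (adjusted p = 0.00980), and BIRC2 (0.05) and NAIP (-0.26) did not pass. Without control replicate 3 the list held 3 calls, those of BIRC3, XIAP and BIRC6, so BIRC5 lost its call there. BIRC7, with 3 counts or fewer in each group, was not tested.

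In the death receptor list 3 of 10 tested genes rose and 3 fell (median 0.14). TNFRSF10A, a receptor of the death ligand TRAIL, rose to 87.9, 96.5 and 90.1 CPM in knockout cells, against 43.2, 42.8 and 37.1 CPM in control cells (log2 1.15, SE 0.07, adjusted p = 7.81e-17 in edgeR), and the other TRAIL death receptor gene TNFRSF10B rose by 0.51 (adjusted p = 1.35e-08). The gene of the ligand itself, TNFSF10, fell to 17.2, 19.0 and 15.2 CPM in knockout cells, against 59.7, 65.8 and 64.4 CPM in control cells (log2 -1.88, SE 0.09, adjusted p = 4.37e-20). CFLAR, encoding the caspase-8 inhibitor FLIP, rose by 0.56 (adjusted p = 1.88e-05), while TNFRSF1A (-0.25) and the adaptor gene TRADD (-0.35) fell; 9 of the 20 neighbours of TRADD on chromosome 16 fell and 0 rose. FAS (0.17), FADD (0.11), RIPK1 (-0.07) and the decoy receptor gene TNFRSF10D (0.23) did not pass. TNF, with 8, 13 and 6 counts in knockout libraries and 4, 6 and 5 in control libraries, was not tested, nor were FASLG, TNFRSF10C and TNFRSF1B, with 3 counts or fewer in each group.

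Transcription factors known to act on BCL2 family genes split evenly, with 4 of 12 higher, 4 lower and 4 not past the threshold (median 0.02). STAT3, an activator of MCL1 and BCL2L1, fell to 171, 186 and 182 CPM in knockout cells, against 304, 298 and 306 CPM in control cells (log2 -0.75, SE 0.05, adjusted p = 7.92e-16 in edgeR), beside 19 of its 20 neighbours on chromosome 17 that fell (median -0.60). TP73 fell to 0.373 CPM in knockout cells, against 2.43 CPM in control cells (log2 -2.71, adjusted p = 4.77e-06), and FOXO1 fell (-0.50, adjusted p = 9.37e-06). MYC rose to 217 ± 14.8 CPM in knockout cells, against 117 ± 11.3 CPM in control cells (SD, n = 3 each; log2 0.89, adjusted p = 4.60e-11), and FOXO3 (0.43, adjusted p = 4.08e-08), TP63 (0.25, adjusted p = 0.000172) and RELA (0.23, adjusted p = 0.0160) also rose. ATF4 (0.06) and DDIT3 (0.00), the stress factors that act on PMAIP1 and BBC3, did not pass, nor did E2F1 (-0.05) and NFKB1 (0.04). The list held 7 calls without control replicate 3 or without knockout replicate 2, and 9 without knockout replicate 3. FOXO1 and RELA were not followed singly over these settings.

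Of 10 genes that govern the turnover of MCL1 and BH3-only proteins, 1 fell and 9 did not pass (median -0.03). The one that fell was HUWE1, a ubiquitin ligase of MCL1, at 505 ± 48.6 CPM in knockout cells and 565 ± 12.9 CPM in control cells (SD, n = 3 each; log2 -0.16, adjusted p = 0.0138 in edgeR), and this call was lost without control replicate 3 and without knockout replicates 1 or 2. The deubiquitinase gene USP9X (-0.04) and the ligase genes FBXW7 (0.17) and MARCHF5 (-0.10) did not pass.

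**Figure D5:**
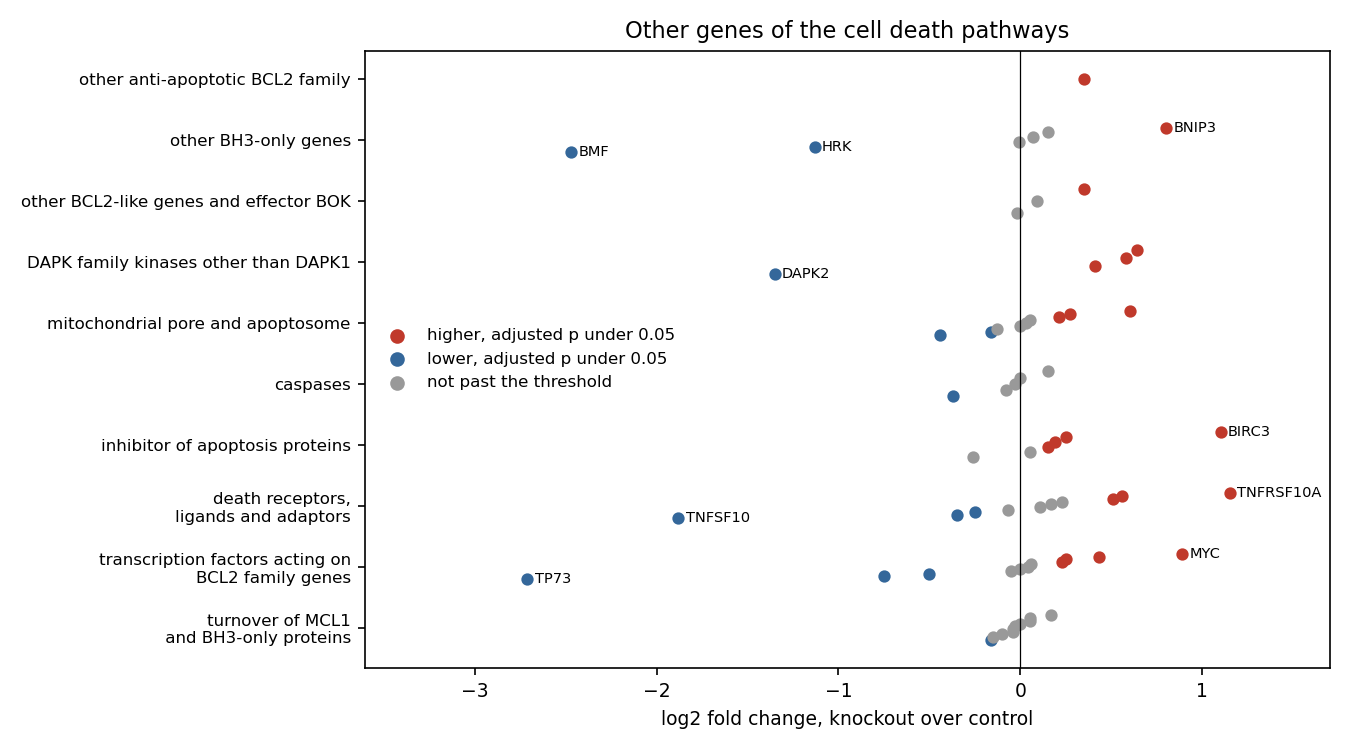
Log2 fold change, knockout over control, of the tested genes in the 10 pathway lists, without 3 that are not reported; red points were higher and blue points lower at an adjusted p under 0.05, and grey points did not pass. Genes with an absolute value of at least 0.8 are named, among them BMF at -2.47, TNFSF10 at -1.88, DAPK2 at -1.35, BIRC3 at 1.10 and TNFRSF10A at 1.15.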

How the data were processed

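Bulk RNA was sequenced from 6 HaCaT libraries made with a stranded total-RNA kit, per the labels' protocols. The authors deposited 1 table of raw counts per gene (46287 rows, 16383 with a count). Per the submitters' processing notes, the genome build was GRCh38. The aligner, counter, strand setting and annotation are named nowhere in the sources used here. Libraries of 1 group differed by more than counting noise (chi-square per degree of freedom 2.65 to 4.49), and each was kept.

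The deposited counts went into edgeR 4.0.16 under R 4.3.3 (filterByExpr with minimum count 10 and total 15, TMM scaling, robust quasi-likelihood F test, two-sided, no block), Benjamini-Hochberg adjusted over 12293 genes at a threshold of 0.05. Fold changes use a prior count of 0.125; the SE was obtained by dividing the size of the fold change by the root of F. CPM and RPKM were computed from the deposited counts on TMM-adjusted library sizes, with lengths and positions from GENCODE 29 (12105 tested genes placed) and promoters from RefSeq. The fit was tested on simulated data.

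The genes described and the lists were chosen with earlier results of these data known. Named genes were all 10 members, SDR42E1, up to 3 in each direction per list by adjusted p, the 5 genes on each side of DAPK1 and the 5 nearest profiles. Further list members, NTRK2 as a neighbour, the count ratios and the neighbours of list genes were chosen after their values were seen. 3 list genes are not reported here by name. Other settings were DESeq2 1.42.0, limma-voom (limma 3.58.1), RLE and upper-quartile scaling, other filters on low counts (none, or 1 CPM in 3 libraries), a replicate block, and each library left out in turn.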

Additional observations from a re-analysis of the deposited data

How the results depend on the processing

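No fold change of the 10 members, SDR42E1 or the 38 list genes followed singly reversed. Other genes given above were not followed in this way. The neighbour median of PMAIP1 did change sign. SDR42E1, DAPK1, BCL2L1, PMAIP1, BAX and BAK1 stayed past the threshold, and MCL1 and BBC3 short of it, under all 13 settings; DAPK1 ran from -6.53 to -5.77 on the log2 scale. BID lost its call with DESeq2 (0.15), upper-quartile scaling (0.11) and without any one of 4 libraries. With 1 library left out, BID ran from 0.12 to 0.19, BCL2L11 from -0.37 to -0.25 (not called without control replicate 2 or knockout replicate 1) and BCL2 from 0.90 to 1.36 (not called without knockout replicate 3). Counts of all genes called ran from 5338 to 6425. Higher calls made up 43.4% of the total under upper-quartile scaling and 48.8% under TMM. With no filter the other anti-apoptotic list gained BCL2A1 (2 called). Leaving out 1 library took the turnover, BCL2-like and endothelial lists to between 0 and 1 call and immune markers to at most 1, upper-quartile scaling gave 2 in the turnover list, and DESeq2 gave 0 endothelial markers. Of the 38 list genes followed singly, up to 3 in each direction per list, 34 kept their call. BCL2L12, HTRA2, HUWE1 and VWF lost it under at least 1 setting. Further list members given as called, BIRC5, FOXO1 and RELA among them, are outside that count, and BIRC5 lost its call without control replicate 3.

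With 20 neighbours on each side the median was -0.13 for DAPK1, 0.03 for BCL2, -0.14 for BCL2L1, -0.39 for MCL1, 0.22 for BCL2L11, -0.02 for BBC3 and 0.00 for PMAIP1. With 5 it was 0.07 for BCL2, -0.38 for MCL1, 0.16 for BCL2L11, -0.06 for BBC3, -0.12 for PMAIP1 and 0.10 for BAX. With the longest transcript as length, BCL2L1 ranked 2 and PMAIP1 3 in knockout cells, and BAX 5 and BAK1 6 in both groups.

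Libraries with the same number showed no shared deviation (0.06, -0.05 and 0.03 as correlations), so they were treated as unpaired. A replicate block gave 6425 called genes, 8 of the 10 among them. At 10 to 39 counts per library, BBC3 and BCL2 are limited by depth.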
